A study of Mus musculus with 6 samples.

Results

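The genes described are the 9 that cut and rejoin DNA when lymphocytes assemble their antigen receptors, taken by symbol from the 55401 gene IDs of a bulk RNA count table. They were Rag1 and Rag2, Dntt, and the end-joining genes Dclre1c, Prkdc, Xrcc4, Xrcc5, Xrcc6 and Lig4, and each had a row. The study compared 3 libraries of LSK cells with 3 libraries of ESC-derived cells, each made from 2000 sorted cells. LSK cells carry Sca-1 and c-Kit and no lineage antigens (Lin-Sca-1+c-Kit+). This fraction of bone marrow holds stem and multipotent progenitor cells, and its donors were C57BL/6 mice of 6 to 8 weeks. The ESC-derived cells were Lin-Sca-1+c-Kit-. They were sorted from marrow of primary recipients given CD144+ cells, which had been made by differentiation of embryonic stem cells (ESCs). Both groups are labelled wild type, and the LSK cells untreated. The stem cell line, the number and strain of the recipients, their conditioning, and any marker that sets donor cells apart from the host's own marrow are not stated in the sources used here, nor is whether libraries of a group came from separate animals. The p-values therefore measure the spread between these libraries only.

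V(D)J recombination joins gene segments into the antigen receptor genes of B and T cells. The RAG1 and RAG2 proteins form the recombinase that cuts at recombination signals and leaves hairpin-sealed coding ends. Artemis, the product of Dclre1c, opens the hairpins together with DNA-PKcs, the kinase encoded by Prkdc, which is recruited by the Ku heterodimer of Xrcc5 and Xrcc6. Terminal transferase, encoded by Dntt, adds bases at the junction without a template, and XRCC4 with DNA ligase IV, the product of Lig4, seals it. The recombinase and terminal transferase are made in immature lymphocytes and in lymphoid-primed progenitors and are shut off in mature lymphocytes, while the end-joining proteins repair breaks in cells of every kind.

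The gates were checked on Kit and Ly6a, the genes of c-Kit and Sca-1. Kit stood at 42.9, 47.5 and 55.5 CPM (the count scaled to a fixed library total after TMM normalization) in LSK replicates 1, 2 and 3 and at 0.0476, 0.0945 and 0.127 CPM in the ESC-derived replicates, and Ly6a at 246.0 CPM or more in every library. The ESC-derived libraries carried T cell transcripts at high level in spite of the Lin-negative label. The summed CPM of 10 mature T cell markers, Cd3e and Cd8a among them, ran from 9995 to 10639 in these libraries and from 149 to 166 in LSK libraries. LSK libraries in turn carried transcripts of B lineage cells, with a sum over 10 pro-B and pre-B markers of 644 to 647 CPM, against 4.78 to 15.1 CPM in ESC-derived libraries. LSK replicate 2 lay between LSK replicates 1 and 3 in 66.6% of 8313 genes at 10 CPM or more, and LSK replicates 1 and 3 were the middle one in 17.1 and 16.3%. The ESC-derived replicates were the middle one in 32.0, 37.7 and 30.4%. How this came about was not tested. Since a library between the others narrows the LSK spread, calls of the members and pathway lists are also given without it where they change.

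Dntt and Rag2 were all but missing from the ESC-derived libraries, and the end-joining genes were present in both groups. Of the 8 genes that passed the low-count filter, 3 fell (Rag2, Dntt and Xrcc6) and 0 rose past a threshold of 0.05 for the adjusted p (quasi-likelihood test of edgeR over all 16211 tested genes), and 5 did not pass. Over all tested genes 15.2% fell and 14.8% rose, 30.0% together, so the count of falls among the 8 rests on few genes. Rag2 and Dntt could pass the filter only through their LSK counts, so their falls are no support for a shared direction. Without LSK replicate 2 only Dntt passed. The median log2 fold change of the 8, ESC-derived minus LSK, was -0.12 against -0.07 over all tested genes, and that of the 6 end-joining genes alone was 0.57. In bulk samples, fewer cells of a type and less RNA per cell cannot be told apart.

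**Figure D1:**
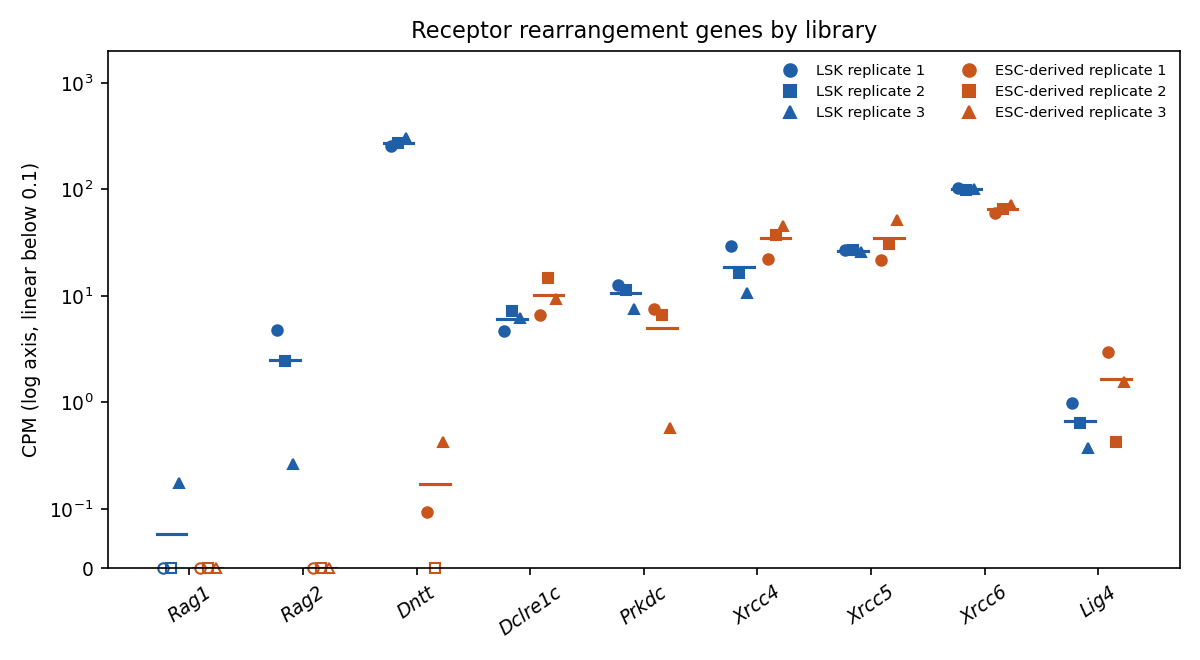
Expression of the 9 genes in each library, in CPM on a log axis that is linear below 0.1, with LSK libraries in blue and ESC-derived libraries in orange. Each point is a library, open points are at 0, and bars are means of 3 libraries. Dntt, Rag2 and Xrcc6 separate the groups, while for Dclre1c, Prkdc, Xrcc4, Xrcc5 and Lig4 the points of the groups overlap. Rag1 is at or near 0 in every library.

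Rag1, which encodes the catalytic subunit of the recombinase (ENSMUSG00000061311, mm10 chr2:101638282-101649501, minus strand), was close to undetected in both groups. It had 0, 0 and 8 counts in LSK replicates 1, 2 and 3 and 0 counts in each ESC-derived library. These totals lie under the floor, set at 12 summed counts per group because a fragment was often worth 4 counts and 3 fragments are needed, so no fold is given and the gene was not tested. A lack of Rag1 transcripts cannot be told apart at this depth from a level below the floor.

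Rag2, which encodes the partner subunit (ENSMUSG00000032864, chr2:101624718-101632529, plus strand), had counts in each LSK library and in no ESC-derived library. It had 232, 113 and 12 counts in LSK replicates 1, 2 and 3, or 4.78, 2.47 and 0.261 CPM, and 0 counts in each ESC-derived library. The groups did not overlap, and the LSK libraries differed widely among themselves. Set against the floor, its ESC-derived level was at least 28.0-fold lower, with an edgeR adjusted p of 0.0222 (range over 13 alternatives 1.43e-05 to 0.0759). The call was lost without LSK replicate 1 (adjusted p = 0.0632) and without LSK replicate 2 (adjusted p = 0.0759). Rag2 could pass the low-count filter only through its LSK counts. Part of its exon sequence is shared with B230118H07Rik, a more abundant gene in LSK cells described below. The part of the shared bases in these counts was not tested.

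Dntt (ENSMUSG00000025014, chr19:41029275-41059525, plus strand) had the highest level of the 9 genes in LSK cells. It stood at 255, 269.7 and 300.2 CPM in LSK replicates 1, 2 and 3 and at 0.0951, 0 and 0.422 CPM in the ESC-derived replicates. The groups lay about 3 orders of magnitude apart, and the LSK libraries had 12343, 12324 and 13789 counts where the ESC-derived libraries had 4, 0 and 20. Dntt fell by 10.56 ± 0.77 on the log2 scale (SE, edgeR adjusted p = 0.000186, range over 15 alternatives 4.66e-17 to 0.0025). Like Rag2, Dntt could pass the low-count filter only through its LSK counts. The ratio of the groups' summed counts, after scaling for library totals, was 1507, with a 95% counting interval of 692 to 4106 that takes 4 counts as a fragment and covers counting error only. Leaving out each library in turn moved the log2 fold change between -12.42 and -10.00, and without LSK replicate 2 it was -10.60.

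The sequences before the starts of Rag1, Rag2 and Dntt are shown because these genes share low or absent transcripts in the ESC-derived libraries, and those of Xrcc5 and Lig4 because their transcripts were present in both groups. RefSeq's table for build GRCm38.p6, the build of mm10, held a start for 8 of the 9 genes, all but Prkdc. Each line gives the 250 bases before a start, 5′ to 3′ on the gene's own strand, with CpG dinucleotides, the sites of DNA methylation, in capitals. The windows are chr2:101649533-101649782 (minus strand) for Rag1, chr2:101624462-101624711 (plus) for Rag2, chr19:41029025-41029274 (plus) for Dntt, chr1:72307171-72307420 (plus) for Xrcc5 and chr8:9976312-9976561 (minus) for the downstream of 2 Lig4 starts. The Rag1 window also lies directly before the annotated start of B230118H07Rik, a minus-strand gene that begins at chr2:101649532. It is therefore not particular to Rag1.
Rag1: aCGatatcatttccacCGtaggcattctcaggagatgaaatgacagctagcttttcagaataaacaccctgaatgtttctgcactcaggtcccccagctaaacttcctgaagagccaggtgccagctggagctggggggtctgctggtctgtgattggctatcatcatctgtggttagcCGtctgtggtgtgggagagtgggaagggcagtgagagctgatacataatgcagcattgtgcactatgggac
Rag2: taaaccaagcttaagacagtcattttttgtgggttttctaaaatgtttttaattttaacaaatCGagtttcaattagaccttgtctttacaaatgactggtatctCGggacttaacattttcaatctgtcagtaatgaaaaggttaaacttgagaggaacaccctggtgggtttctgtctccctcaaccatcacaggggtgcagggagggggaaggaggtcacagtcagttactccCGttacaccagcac
Dntt: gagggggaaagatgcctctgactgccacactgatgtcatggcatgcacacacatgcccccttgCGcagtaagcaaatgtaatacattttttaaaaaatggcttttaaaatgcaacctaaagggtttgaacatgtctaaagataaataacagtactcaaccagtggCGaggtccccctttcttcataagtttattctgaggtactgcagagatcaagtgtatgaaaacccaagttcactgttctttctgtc
Xrcc5: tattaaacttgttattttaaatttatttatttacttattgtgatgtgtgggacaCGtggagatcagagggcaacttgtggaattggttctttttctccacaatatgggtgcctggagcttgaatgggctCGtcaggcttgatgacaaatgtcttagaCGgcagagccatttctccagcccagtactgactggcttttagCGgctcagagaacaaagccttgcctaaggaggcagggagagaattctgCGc
Lig4: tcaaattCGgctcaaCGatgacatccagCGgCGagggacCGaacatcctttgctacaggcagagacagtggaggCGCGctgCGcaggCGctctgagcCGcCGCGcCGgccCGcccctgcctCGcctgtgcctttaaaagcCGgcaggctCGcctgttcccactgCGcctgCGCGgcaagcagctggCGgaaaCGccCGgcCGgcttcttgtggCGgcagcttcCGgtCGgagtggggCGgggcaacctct

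Rag1 and Rag2 had 3 CpG dinucleotides each in these windows and Dntt had 2, under the median of 6 over 32851 windows of all genes (quartiles 2 and 16). Xrcc5 had 5 and Dclre1c 8, while Xrcc6 had 25, Xrcc4 26 and Lig4 27 and 28 at its starts. The lymphoid-specific genes thus had the lowest values of the 8 genes, with Xrcc5 next. Such counts are common, as 18.8% of all windows had fewer than Dntt and 29.0% fewer than Rag1 and Rag2. Their G and C content was 50.8% for Rag1, 41.2% for Rag2 and 41.6% for Dntt, and between 44.8% (Xrcc5) and 70.0% (a Lig4 start) for the end-joining genes, so the groups overlapped. Of 7 short motifs searched on both strands, the E-box CANNTG occurred 3 times in the Rag1 window, 1 time in the Rag2 window and 3 times in the Dntt window. It also occurred 2 times each before Dclre1c and Xrcc5 and 1 time each before Xrcc6 and both Lig4 starts, and 66.2% of all windows held it. The Runx core TGTGGT occurred 2 times before Rag1 and in none of the other members' windows, against 14.0% of all windows. CCAAT was found before Rag1, Dclre1c and Xrcc5, against 33.8% of all windows. The Ikaros core TGGGAA was found before Rag1 and the downstream Lig4 start (21.6% of all windows), the GATA core AGATAA before Dntt (9.99%), and TATAAA (12.4%) and GTAAACA (3.17%) before no member. The CpG count and matches given for Rag1 belong to the B230118H07Rik start as well. These are matches of letters, not sites of binding, and methylation was not measured here.

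**Figure D2:**
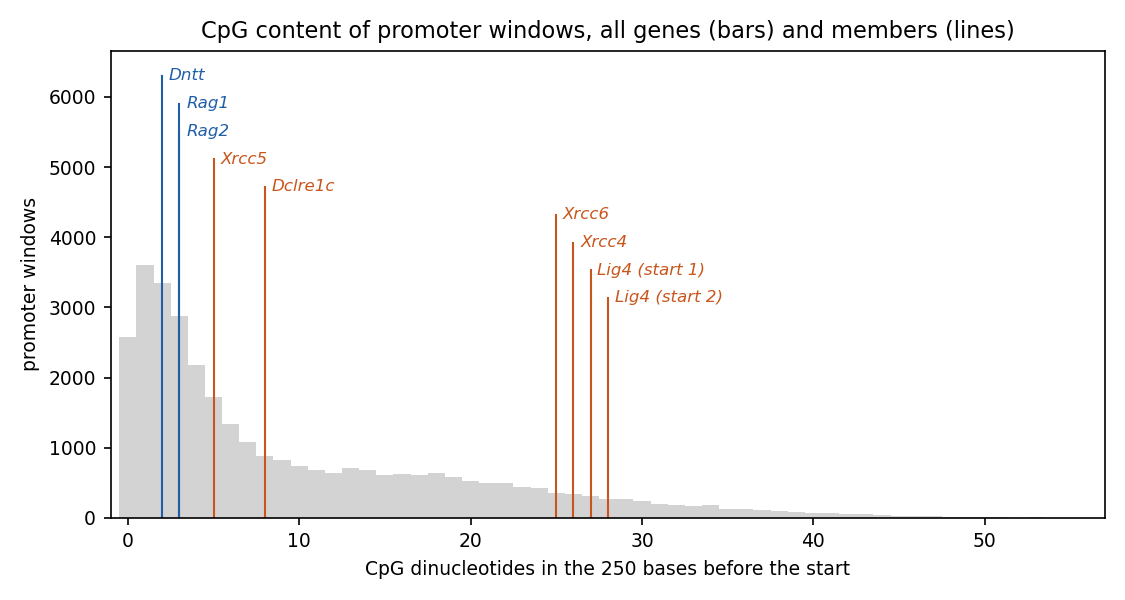
Number of CpG dinucleotides in the 250 bases before the annotated start, for 32851 windows of all genes (grey bars, windows per value) and for the 8 matched genes (lines, whose heights only separate the names). Rag1, Rag2 and Dntt lie at 3, 3 and 2, and Xrcc6, Xrcc4 and Lig4 between 25 and 28.

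Rag1 and Rag2 lie next to each other in opposite orientation, inside the span of B230118H07Rik, a protein-coding gene on the minus strand (chr2:101560781-101649532). The annotation has 80 bases of Rag1 exon and 208 bases of Rag2 exon in common with exons of that gene. The libraries do not mark strand, so reads of these stretches cannot be assigned to 1 gene, and the Rag2 and B230118H07Rik counts are uncertain. The shared bases are 6.07% of the Rag2 exon length, but B230118H07Rik stood far above Rag2 in every LSK library. Rag2 stood at 4.78, 2.47 and 0.261 CPM there, and how much of this came from the shared bases was not tested. B230118H07Rik fell by 4.44 ± 0.91 on the log2 scale, from 68.5, 64.2 and 49.6 CPM in the LSK replicates to 5.09, 0.26 and 3.04 CPM in the ESC-derived replicates (edgeR adjusted p = 0.0115). Of the 3 protein-coding genes within 200 kb of the RAG genes, 1 fell and 1 rose. Over all tested genes 15.2% fell and 14.8% rose, so these counts rest on few genes. Prr5l, which encodes a component associated with mTOR complex 2, had a mean LSK level of 2.02 ± 2.05 CPM and a mean ESC-derived level of 26.1 ± 8.19 CPM (± is the SD over n = 3 libraries for means and the SE for fold changes), with a log2 fold change of 3.69 ± 0.97. Its call was lost without LSK replicate 2 (adjusted p = 0.105) and without ESC-derived replicate 1 or 2 (0.0686 and 0.0706). Traf6, an adaptor of innate immune signalling, averaged 24.7 ± 4.31 and 25.6 ± 5.27 CPM (0.05 ± 0.25, adjusted p = 0.912).

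In CPM, the Ku gene Xrcc6 was the most abundant end-joining member in each library. The other Ku gene, Xrcc5, and Xrcc4 came next, and their ranges overlapped in both groups. Xrcc6, which encodes Ku70 (ENSMUSG00000022471, chr15:81987835-82040085), stood at 102, 97.8 and 102 CPM in LSK replicates 1, 2 and 3 and at 59.7, 65.4 and 71.1 CPM in the ESC-derived replicates. The groups did not overlap, as was the case for 49.8% of all tested genes. Xrcc6 fell by 0.62 ± 0.13 on the log2 scale (edgeR adjusted p = 0.011, range over 15 alternatives 1.13e-05 to 0.054), and the call was lost without LSK replicate 2, at an adjusted p of 0.054.

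Xrcc5, which encodes Ku80 (ENSMUSG00000026187, chr1:72307421-72394952), was measured at 26.9, 26.8 and 25.9 CPM in LSK cells and at 21.7, 31.0 and 51.3 CPM in ESC-derived cells. The LSK libraries were close together and lay inside the ESC-derived range. The gene did not pass (log2 fold change 0.39 ± 0.32, adjusted p = 0.428), and without ESC-derived replicate 3 the fold change was -0.0081. Per base of exon, Xrcc6 stood over Xrcc5 by a ratio of 2.18, 2.08 and 2.24 in the LSK replicates and 1.57, 1.20 and 0.791 in the ESC-derived replicates. This ratio within each library, chosen after the values were seen, does not depend on the scaling of libraries. Its groups did not overlap (exact two-sided permutation test, p = 0.1, the smallest that 3 against 3 libraries allow). Because the ratio was chosen with its values known, this p-value is no support for a difference. In the annotation 7.69% of the Xrcc6 exon bases are shared with Desi1 on the other strand.

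Prkdc, the gene of DNA-PKcs (ENSMUSG00000022672, chr16:15637866-15842235), stood at 12.6, 11.4 and 7.56 CPM in LSK cells and 7.61, 6.66 and 0.57 CPM in ESC-derived cells. The low value belongs to ESC-derived replicate 3, which had 27 counts where the other ESC-derived libraries had 320 and 282. The gene did not pass (-1.09 ± 0.85, adjusted p = 0.395), and its log2 fold change ran from -1.54 to -0.56 as each library was left out. Dclre1c, the gene of the hairpin-opening nuclease Artemis (ENSMUSG00000026648, chr2:3424131-3464130), had 4.70, 7.29 and 6.21 CPM in LSK cells and 6.66, 14.7 and 9.36 CPM in ESC-derived cells (0.76 ± 0.42, adjusted p = 0.239). ESC-derived replicate 1 lay within the LSK range, and the other ESC-derived libraries lay above it.

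For the ligation step, Xrcc4, the scaffold of DNA ligase IV (ENSMUSG00000021615, chr13:89774027-90089608), had 29.1, 16.5 and 10.6 CPM in LSK cells and 22.2, 37.0 and 45.7 CPM in ESC-derived cells. LSK replicate 1 exceeded ESC-derived replicate 1, so the groups overlapped, and the gene did not pass (0.90 ± 0.44, adjusted p = 0.175). Lig4 itself (ENSMUSG00000049717, chr8:9969049-9977686) was low throughout, at 0.99, 0.635 and 0.37 CPM in LSK cells and 2.97, 0.425 and 1.56 CPM in ESC-derived cells. Between 17 and 125 counts lay behind each value, and the gene did not pass (1.31 ± 0.96, adjusted p = 0.364). The ESC-derived libraries differed widely among themselves, at 125, 18 and 74 counts, and the parts of depth and of this spread were not tested. A difference that did not pass is not shown to be absent for these 5 genes, whose standard errors ran from 0.32 to 0.96.

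**Figure D3:**
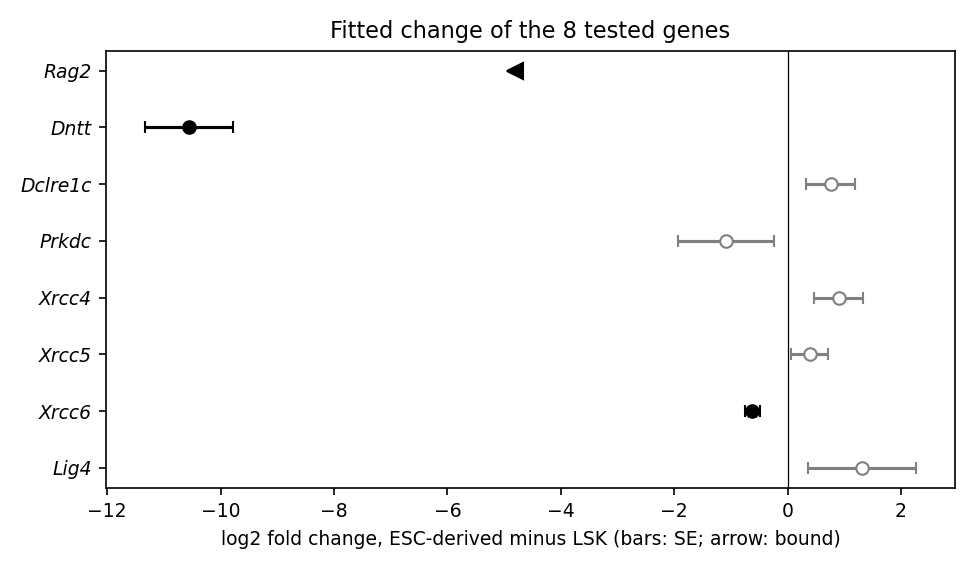
Log2 fold change, ESC-derived minus LSK, of the 8 tested genes, with bars for the SE of the edgeR fit over 3 libraries per group, filled points for genes past the threshold and open points for the rest. Rag2 is drawn as an arrow at its bound of -4.81, since all ESC-derived libraries are at 0, and Dntt lies at -10.56 while the end-joining genes lie between -1.09 and 1.31.

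Per kb of exon, Dntt led the 9 genes in LSK cells and Xrcc6 led them in ESC-derived cells. In LSK cells Dntt stood at 119.9 ± 10.2 CPM per kb, followed by Xrcc6 (22.5 ± 0.55), Xrcc5 (10.4 ± 0.204) and Xrcc4 (4.45 ± 2.24), with no overlap between neighbours down to Prkdc (0.799 ± 0.201). Prkdc, Rag2 (0.732 ± 0.661) and Dclre1c (0.651 ± 0.139) overlapped, Lig4 (0.128 ± 0.0598) lay below them, and Rag1 was last. In ESC-derived cells Xrcc6 (14.6 ± 1.27 CPM per kb), Xrcc5 (13.6 ± 5.92) and Xrcc4 (8.30 ± 2.83) led, and each overlapped its neighbour. Dclre1c (1.10 ± 0.441) stood alone, Prkdc (0.375 ± 0.29), Lig4 (0.318 ± 0.245) and Dntt (0.0753 ± 0.0967) overlapped in turn, and Rag1 and Rag2 were at 0. Lengths are the union of annotated exons, so genes with long alternative transcripts are understated.

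Among the relatives of Dntt in the DNA polymerase X family, Polm rose, Poll fell and Polb did not pass. Polm, whose product fills gaps at junctions and is the closest relative of terminal transferase, stood at 0.577, 0.679 and 0.544 CPM in the LSK replicates and 6.23, 7.11 and 11.3 CPM in the ESC-derived replicates. The groups did not overlap, and Polm rose by 3.77 ± 0.54 on the log2 scale (edgeR adjusted p = 0.00278, range over 15 alternatives 2.78e-12 to 0.0236). Poll, the gene of another gap-filling polymerase, fell by 1.42 ± 0.38, from 12.8 ± 1.52 to 4.77 ± 1.49 CPM (adjusted p = 0.0302). Poll did not pass when LSK replicate 1, 2 or 3 was left out (adjusted p = 0.0638, 0.111 and 0.0956) or ESC-derived replicate 2 (0.0529). Polb, of base excision repair, averaged 32.5 ± 2.97 and 47.9 ± 8.29 CPM and did not pass (0.56 ± 0.19, adjusted p = 0.0684, range 0.0304 to 0.245). Per base of exon, Polm stood to Poll as 0.0325, 0.0341 and 0.0241 in the LSK replicates and as 0.682, 1.47 and 1.32 in the ESC-derived replicates, a ratio also chosen after the values were seen (exact two-sided permutation test, p = 0.1, the smallest possible). For a ratio so chosen, the p-value is no support for a difference.

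The partners of the early receptor chains, which pair with newly rearranged chains in immature lymphocytes, were lower in ESC-derived libraries, like Dntt and Rag2. All 4 tested were called lower, also without LSK replicate 2. Each of the 4 could pass the low-count filter only through its LSK counts, so the count of falls is no support for a shared direction. Vpreb1, a part of the surrogate light chain of pre-B cells, stood at 54.8, 56.2 and 49.4 CPM in LSK cells and 3.26, 1.75 and 0.211 CPM in ESC-derived cells (-4.94 ± 0.86, adjusted p = 0.00636). Igll1, its partner in the surrogate light chain, had 46.9, 30.0 and 16.4 CPM in LSK cells and 0 counts in ESC-derived cells, at least 345-fold lower (adjusted p = 0.000982). Vpreb2, a near-identical copy of Vpreb1 whose reads can be split with it, was at least 145-fold lower, from 13.1 ± 4.56 CPM (adjusted p = 0.00113). Vpreb3, another Vpreb family gene of early B cells, stood at 51.4 ± 7.90 CPM in LSK cells, against 8 counts over the ESC-derived libraries, a ratio of 848 after scaling for library totals (95% counting interval 234 to 7008). All 8 counts lay in ESC-derived replicate 3, and its fitted log2 fold change ran from -14.17 to -9.15 as each library was left out. Ptcra, which encodes the partner of the T cell receptor beta chain in immature thymocytes, had 0 counts in each of the 6 libraries.

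**Figure D4:**
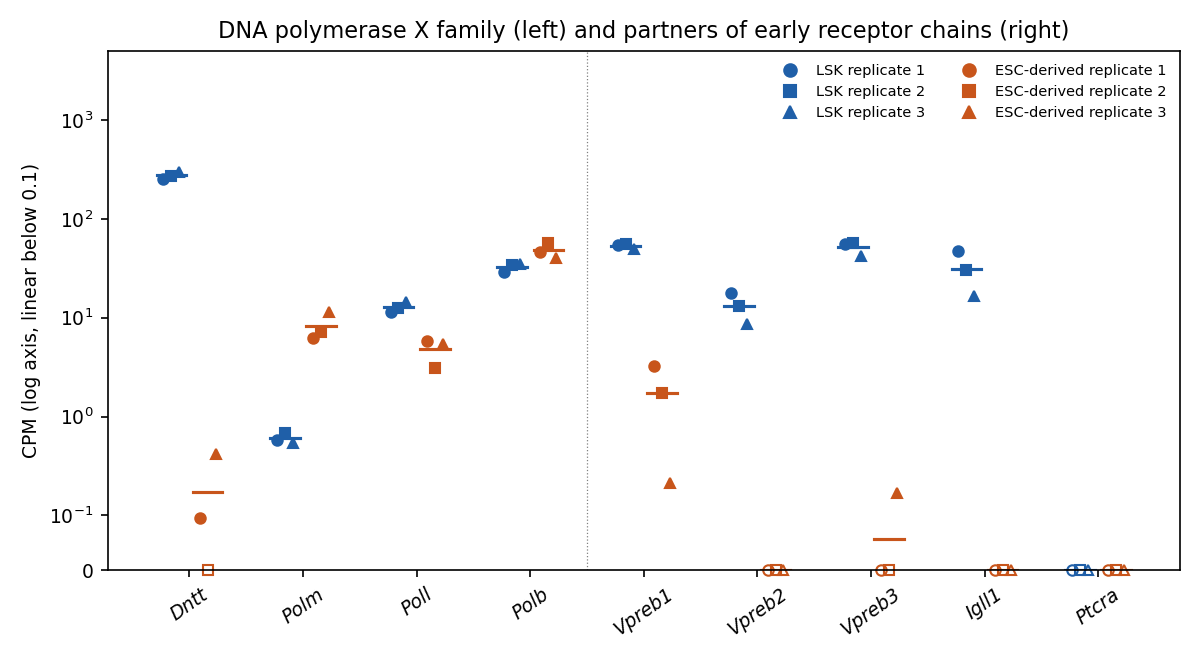
Expression by library of Dntt with its polymerase relatives Polm, Poll and Polb, and of the partners of early receptor chains, in CPM on a log axis that is linear below 0.1 (blue, LSK; orange, ESC-derived; open points at 0; bars, means of 3 libraries). Polm is higher in all 3 ESC-derived libraries, Dntt, Poll, Vpreb1, Vpreb2, Vpreb3 and Igll1 are lower, and Ptcra is at 0 throughout.

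Among 23 cofactors of the recombinase and transcription factors that act on the RAG and Dntt genes or in early lymphocytes, 8 rose, 7 fell and 8 did not pass, with a median log2 fold change of -0.52. Without LSK replicate 2 the counts were 7 and 5. Over all tested genes 14.8% rose and 15.2% fell. The highest-ranked rises were of Ikzf3, which encodes Aiolos (4.79 ± 0.19), Tcf7, which encodes the T cell factor TCF-1 (4.36 ± 0.21), and Ets1 (3.59 ± 0.21). The highest-ranked falls were of Myb, a progenitor factor (-3.45 ± 0.22), Zfp608, which encodes a repressor of the RAG genes in mouse thymocytes (-6.70 ± 0.61), and Spi1, which encodes the myeloid and B lineage factor PU.1 (-5.57 ± 0.55). The next genes lie outside the rule and were chosen after their values were seen. Foxo1, an activator of the RAG genes in B cells, rose from 14.9 ± 2.29 to 58.2 ± 20.5 CPM (1.96 ± 0.29, adjusted p = 0.00348), and Hmgb2, a DNA-bending cofactor of the recombinase, rose from 1222 ± 59.2 to 4350.1 ± 726 CPM (1.83 ± 0.14). Hmgb1 and Foxp1, their relatives in the list, did not pass and had lower means in ESC-derived cells without overlap of the groups. The log2 fold change was -0.67 ± 0.23 for Hmgb1 (means of 252 and 158 CPM, adjusted p = 0.0684) and -0.85 ± 0.28 for Foxp1 (73.7 and 41.0 CPM, adjusted p = 0.0613). Ebf1, which specifies B cells, fell by 6.63 ± 1.18 on the log2 scale, from 9.04 ± 4.77 CPM.

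Other genes of end processing and accessory end joining mostly did not pass. Of 14 tested, 1 rose (Polm), 2 fell and 11 did not pass, and the median was -0.06. The shares over all tested genes were 14.8% for rises and 15.2% for falls. Without ESC-derived replicate 3, 3 rose, and 1 fell when ESC-derived replicate 2 or any LSK library was left out. The falls were of Poll and of Dclre1b, which encodes the telomere nuclease Apollo, a relative of Artemis (-1.74 ± 0.25, from 67.3 ± 12.1 to 20.2 ± 5.63 CPM). Among 16 genes of break sensing and chromatin at breaks, 1 rose, 5 fell and 10 did not pass, with a median of -0.55, and without LSK replicate 2 the counts were 0 and 3. Falls were also 3 without LSK replicate 1 or ESC-derived replicate 3. Chek2, a checkpoint kinase (-2.78 ± 0.29), H2afx, the gene of the histone H2AX that is phosphorylated beside breaks (-0.89 ± 0.11), and Rnf168, a ubiquitin ligase acting on chromatin at breaks (-2.46 ± 0.53), fell. The Rnf168 call was lost without ESC-derived replicate 2 (adjusted p = 0.0501). Shld1, a subunit of shieldin, which protects ends from resection, rose by 1.92 ± 0.44, a call lost without LSK replicate 2 or 3 (adjusted p = 0.079 and 0.0526).

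Of 8 genes of alternative end joining, 2 fell, 0 rose and 6 did not pass, with a median of -0.79. As 15.2% of all tested genes fell and 14.8% rose, counts in lists this short rest on few genes. Lig1, which joins strands in replication as well, fell by 0.91 ± 0.15, and Parp1, a break sensor, by 1.64 ± 0.34 (log2), with LSK libraries at 79.6 ± 9.50 CPM and ESC-derived ones at 25.6 ± 11.8 CPM. Of 7 genes of class switching and hypermutation tested, 3 fell and 0 rose, with a median of -0.40. They were Apex1, an endonuclease of base excision repair (-1.85 ± 0.14), Msh6, a subunit of mismatch repair (-1.43 ± 0.27), and Ung, the uracil glycosylase (-0.90 ± 0.20), whose call was lost without LSK replicate 2 (adjusted p = 0.089). These lists hold genes that also act in general DNA repair and replication.

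Markers of B lineage, plasma, lymphoid-primed and stem cells mostly fell, like Dntt and Rag2, while markers of mature T cells mostly rose. All 10 pro-B and pre-B markers were detected in LSK cells, and in ESC-derived cells 8 fell, with Igll1 and Vpreb2 at 0. Cd79a, whose product signals for the B cell receptor, had means of 228 ± 3.61 and 2.36 ± 0.925 CPM in LSK and ESC-derived libraries. Of 8 plasma cell markers 6 fell and 1 rose, with sums of 4236 to 4968 CPM in LSK and 97.9 to 119 CPM in ESC-derived libraries, led by Jchain at 4289 ± 314 CPM in LSK cells. Of 8 markers of lymphoid-primed progenitors 5 fell and 1 rose, with sums of 1379 to 1455 and 178 to 187 CPM. Among them Flt3, a cytokine receptor, fell from 924 ± 73.4 to 0.584 ± 1.01 CPM, with its 83 ESC-derived counts all in replicate 3, and Il7r, the interleukin-7 receptor, rose by 1.63 ± 0.25. Of 8 stem cell markers 7 fell and 1 rose, with sums of 909.7 to 981 and 45.1 to 94.8 CPM. Of 8 markers used for immature thymocytes 7 were tested, 4 rose and 2 fell, with Ptcra, the defining marker, at 0. Cd3e rose by 6.48 ± 0.20 and Cd8a by 8.87 ± 0.21, and of 10 mature T cell markers 9 rose and 0 fell. Over all tested genes 15.2% fell and 14.8% rose. Bcl11a (lymphoid-primed), Sdc1 and Prdm1 (plasma), Arpp21 and Cd24a (immature thymocyte) and Hlf (stem cell) passed here but not in every alternative. Their adjusted p reached 0.0622, 0.118, 0.0916, 0.117, 0.0776 and 0.0605. For Bcl11a the highest value was that without LSK replicate 2. The part of each of these cell types in the levels of Dntt and Rag2 was not tested.

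Genes of like pattern were found by the root mean square difference of log2(CPM + 0.5) over the 6 libraries. The 3 nearest to Dntt were segments of antibody genes, Igkv4-79 (difference 0.125, 293 CPM on average in LSK cells), Ighv1-54 (0.239, 279 CPM) and Ighv7-1 (0.306, 213 CPM). Their LSK libraries stood between 209 and 332 CPM and their ESC-derived libraries between 0 and 0.824 CPM. Reads of such segments can be split among near-identical copies. The nearest to Rag2 were BC034090 (0.141), Adgrg7 (0.178) and Gm44065 (0.189), each highest in LSK replicate 1 and at 0 in the ESC-derived libraries. The nearest to Rag1 were Ror1, Gm36989 and Pdzrn3 (0.356, 0.369 and 0.391), which are genes close to 0 in all libraries, as Rag1 is.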

How the data were processed

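Bulk RNA was measured in 6 mouse libraries. Per the labels' protocols, the SMART-Seq v4 kit gave the cDNA and the Nextera XT kit the libraries; by this chemistry poly(A) RNA is copied without a record of its strand. HISAT, StringTie and mm10 are named in the submitters' processing notes, and what counted the reads, with which settings and annotation, is not given in the sources used here. Per the file headers and values, the authors deposited estimated counts per gene, whole and not normalized. Of the values from 1 to 20, 40.1 to 47.2% were divisible by 4, so a fragment was often worth 4 counts and counts overstate precision. The table's header holds its 6 column names in 1 field, and columns follow their order there. Total counts ran from 41580006 to 49269286. Symbols, positions and exon lengths come from GENCODE M21 (same build), which matched 55141 of 55401 IDs; of IDs with a common symbol, the one with the highest total count was kept. Shld3 had no entry there, and 16 of 17 break-sensing genes were used.

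The filterByExpr filter left 16211 genes. After TMM scaling, edgeR 4.0.16 (R 4.3.3) fitted a robust quasi-likelihood model, with two-sided F tests, Benjamini-Hochberg adjustment and a threshold of 0.05; the script was tested on simulated data. Each SE is the fold change over the root of its F. Alternatives were DESeq2 1.42.0, limma-voom (limma 3.58.1), scaling by RLE, by the upper quartile or by library totals alone, no filter, 50 counts in 3 libraries, values divided by 4, a block for the replicate number, and leaving out each library. Counting error alone is covered by floors and counting intervals.

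Named genes were the 9 members, up to 3 higher and 3 lower genes of each list by adjusted p, all partner, neighbour and polymerase X genes, the 3 nearest in pattern to Rag1, Rag2 and Dntt, and the markers Kit, Flt3, Il7r, Cd79a, Jchain, Cd3e and Cd8a. The members, lists and tests were chosen with earlier results of these data known. Ly6a, Foxo1, Hmgb2, Hmgb1, Foxp1, Ebf1 and the markers whose calls were not kept in every alternative were added after the data were seen.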

Additional observations from a re-analysis of the deposited data

How the results depend on the processing

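Of 372 values over 15 alternatives, 344 kept their direction and call or moved little, and Dntt passed in all 15. The 344 include genes that passed in no setting and counts that stayed at 0, so they overstate how stable the calls are. The fold change of Xrcc5, which did not pass, turned to -0.0081 without ESC-derived replicate 3. With each library left out, log2 fold changes ran from -10.37 to -8.93 for Rag2, -0.68 to -0.56 for Xrcc6 and -0.0081 to 0.63 for Xrcc5, and 1 to 3 members fell. Genes called ran from 2716 (without LSK replicate 2) to 4603, against 4861. Counts ran from 1 to 3 rises and 1 to 2 falls for end processing, 0 to 1 rises and 3 to 4 falls for break sensing, and 0 to 1 rises among the neighbours. DESeq2 gave 12 falls among RAG cofactors and regulators (limma-voom 11), 3 rises in end processing and 4 falls in alternative end joining. Scaling by library totals only also gave 4 falls in alternative end joining, moved the median of all genes by -0.25 on the log2 scale, and left 36.5% of calls higher in place of 49.3%. Same-numbered libraries of the groups did not deviate together (r = 0.011, 0.045 and 0.015 across genes, which are not independent), so the numbers were not taken as pairs. With the replicate number as a block, 3220 genes passed, Rag2 (-9.58, edgeR adjusted p = 0.0715) did not, 1 gene of end processing fell and 0 neighbours rose. Rag2 had no value where a stricter filter or division by 4 removed it. The cause of these changes was not tested. Rag1, Rag2 and Lig4 had 232 or fewer counts per library.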
